A study of Mus musculus with 12 samples.

Results

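The 9 genes described here are measured in T cells from the pancreatic islets of NOD mice. They are Malt1, Cers6, Arsb, Rnaset2a, Sdf4, Hpcal1, Dennd2d, Gpr18 and Cxxc5, 9 of the 31053 genes counted, and each had at least 1 unique molecular identifier (UMI, a count of 1 captured transcript) in each of the 4 libraries. They were chosen by their expression values in these libraries, because they had moved differently with clone size or with surface CD62L in CD8 and in CD4 conventional T cells. Their clone size and CD62L values in those lineages are therefore descriptions, given with a standard error (SE) of the fit and with no test. The levels of CD62L-low CD4 conventional cells are among the values used, so where regulatory T cells are set against them that too is a description. Tests are given within regulatory T cells and for splits of the cells by other properties. The CD8 and CD4 cells of those splits are among the cells behind the choice, so they are not new cells.

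The study took islet T cells from 12-week-old female NOD mice that were pre-diabetic, in 4 biological replicates, and sorted live cells carrying a T cell receptor. NOD is an inbred strain in which T cells infiltrate the islets and destroy the insulin-producing cells, and no mouse here carried a transgene or received an agent according to the labels. Each replicate gave a messenger RNA library and a library of T cell receptor chains. The first came with antibody counts for CD62L, CD11a and CD4 and for a tag recorded as PE, which no gate used. A replicate may be 1 mouse or several pooled, which the labels leave unsaid, so p-values measure the spread between these 4 samples. CD8 cells had an antibody CD4 count under 20 and at least 2 UMIs of Cd8a and Cd8b1. CD4 conventional cells had a CD4 count of at least 40 and no UMI of Cd8a, Cd8b1 or Foxp3. Regulatory T cells (Treg) had a CD4 count of at least 40, no UMI of Cd8a or Cd8b1 and at least 1 Foxp3 UMI. An alternative took any kept barcode with a Foxp3 UMI as Treg. A clone is a set of cells of 1 library with the same receptor. A cell was called single where its receptor was seen once and expanded where it was seen in at least 2 cells. A CD62L count of 3 or less was called low and one of 10 or more high.

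T cells that meet their antigen divide, so cells sharing a receptor mark a clone that has expanded. CD62L is a homing receptor that naive and recirculating T cells use to enter lymph nodes and that activated cells shed or switch off. The 9 genes have different roles. Malt1 is a protease and scaffold that carries antigen receptor signals to NF-kB. Cers6 is a ceramide synthase, Arsb a lysosomal sulfatase of glycosaminoglycans, and Rnaset2a an acid ribonuclease. Sdf4 is a calcium-binding protein of the Golgi lumen and Hpcal1 a member of the neuronal calcium sensor family. Dennd2d holds a DENN domain, which activates Rab GTPases, Gpr18 is a G protein-coupled receptor, and Cxxc5 is a CXXC zinc finger protein that binds CpG-rich DNA and the Wnt pathway protein Dishevelled.

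The 4 libraries held 6175, 4136, 8718 and 8394 barcodes and 26861163 to 37834174 RNA UMIs each. From them 4870, 2982, 6262 and 6913 barcodes were kept, with a median of 2583 to 4142 UMIs per kept barcode. They gave 4048 CD8, 10585 CD4 conventional and 1124 Treg cells. Single and expanded cells numbered 1557 and 1143 in CD8, 5465 and 2145 in CD4 conventional and 585 and 238 in Treg. The rest had no usable receptor, so they could enter the CD62L splits but not the clone size splits. Any pair of libraries shared 36 to 102 barcode sequences. Over the cells of a lineage summed per library, in CPM (UMIs of a gene per 1000000 UMIs), Cd4 stood at 1.05 to 7.48 in the CD8 lineage and Foxp3 at 1.27 to 2.40, whereas Cd4 stood at 467 to 519 in CD4 conventional cells. Libraries differed in the CD11a antibody: 4.17% and 4.80% of the kept barcodes of replicates 1 and 2 had a count under 20, against 30.4% and 30.3% in replicates 3 and 4.

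Several other things moved with clone size, and their part in the results was not tested. Expanded cells cycled more: 59.4% to 74.7% of expanded and 18.8% to 26.8% of single CD8 cells had at least 2 UMIs of 12 cycling genes, and 40.6% to 49.4% against 20.6% to 26.1% of CD4 conventional cells. Expanded CD8 cells also held more RNA, with a median of 5725 to 7441 UMIs against 4085 to 5193. The summed B cell markers were low and lower in expanded CD8 cells, at 4 to 9 CPM against 18 to 28, and the myeloid markers stood at 15 to 19 against 8 to 16. The naive list stood at 421 to 674 against 2427 to 2729 in CD8 and at 492 to 734 against 2256 to 2928 in CD4 conventional cells. The Treg list, with Foxp3 at 0 by the gate, stood at 865 to 1055 against 305 to 549 in CD4 conventional cells. Each member is therefore also given with the cycling cells left out, which leaves 76 to 104 expanded CD8 cells per library.

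Levels below are in CPM of the summed cells of a population in 1 library. Differences are on the log2 scale from a fit that also scales for RNA composition, so they can differ from the ratio of 2 levels. A gene is called where its adjusted p is under 0.05 in edgeR's quasi-likelihood test with Benjamini-Hochberg adjustment over all tested genes. All 9 members passed the filter on low counts, except Cxxc5 in 2 of the Treg comparisons. Levels of different genes are not compared, since capture differs between genes.

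Arsb and Gpr18 show the split most simply where all cells are counted. Without cycling cells, Gpr18 was 0.61 higher on the log2 scale in expanded CD8 cells. With them, the level of Arsb differed with clone size in CD8 but hardly in CD4 conventional cells. That of Gpr18 differed in CD4 conventional but hardly in CD8 cells. The 250 bases before their transcription starts are shown for that reason, 5′ to 3′ on the gene's own strand, from RefSeq (GRCm38.p6). Capitals mark a match to a searched motif. The Arsb window is chr13:93771429-93771678 on the plus strand and the Gpr18 window chr14:121915889-121916138 on the minus strand.
Arsb: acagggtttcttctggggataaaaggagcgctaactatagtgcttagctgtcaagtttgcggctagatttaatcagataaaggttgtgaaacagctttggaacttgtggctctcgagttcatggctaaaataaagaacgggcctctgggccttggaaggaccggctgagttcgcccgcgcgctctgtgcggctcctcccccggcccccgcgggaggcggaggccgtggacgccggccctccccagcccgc
Gpr18: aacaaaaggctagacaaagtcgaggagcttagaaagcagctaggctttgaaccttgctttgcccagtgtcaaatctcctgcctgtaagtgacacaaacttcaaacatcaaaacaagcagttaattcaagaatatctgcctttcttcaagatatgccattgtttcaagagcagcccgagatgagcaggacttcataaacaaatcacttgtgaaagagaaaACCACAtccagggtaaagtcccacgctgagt
Each window was searched on both strands for 7 motifs. The Arsb window held none of them and the Gpr18 window held 1 match, to the RUNX motif TGTGGT, read here as its reverse complement. Of 32851 promoter windows of this length, 14% held that motif, 6.75% the AP-1 motif TGANTCA, 20.4% the NFAT core GGAAAA, 6.91% the ETS motif CCGGAAG, 3.13% the E-box TCACGTG of lysosomal genes, 32.7% the GC box GGGCGG and 33.8% the CCAAT box. A match is only a match of letters.

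In the same build Arsb lies at chr13:93771679-93943016 and Gpr18 at chr14:121911434-121915888. Cers6 lies at chr2:68861145-69114284, Dennd2d at chr3:106482431-106503030, Sdf4 at chr4:155992843-156013610 and Hpcal1 at chr12:17690750-17791944. Rnaset2a lies at chr17:8128580-8148246, Malt1 at chr18:65430939-65478888 and Cxxc5 at chr18:35829379-35861693. Among the members 3 overlap another gene: Sdf4 shares its last 16 bases with the start of Tnfrsf4 on the same strand, Gpr18 lies within Ubac2 on the opposite strand, and Dennd2d overlaps Cept1 on the opposite strand. No source used here says whether strand was used in the counting, so reads in the opposite-strand overlaps could belong to either gene. Sdf4 and Tnfrsf4 lie on the same strand, so strand could not tell reads in their shared bases apart. Rnaset2a has a close copy, Rnaset2b, with 254 of 255 aligned bases identical around one of its starts, and their counts are uncertain for that reason.

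**Figure D1:**
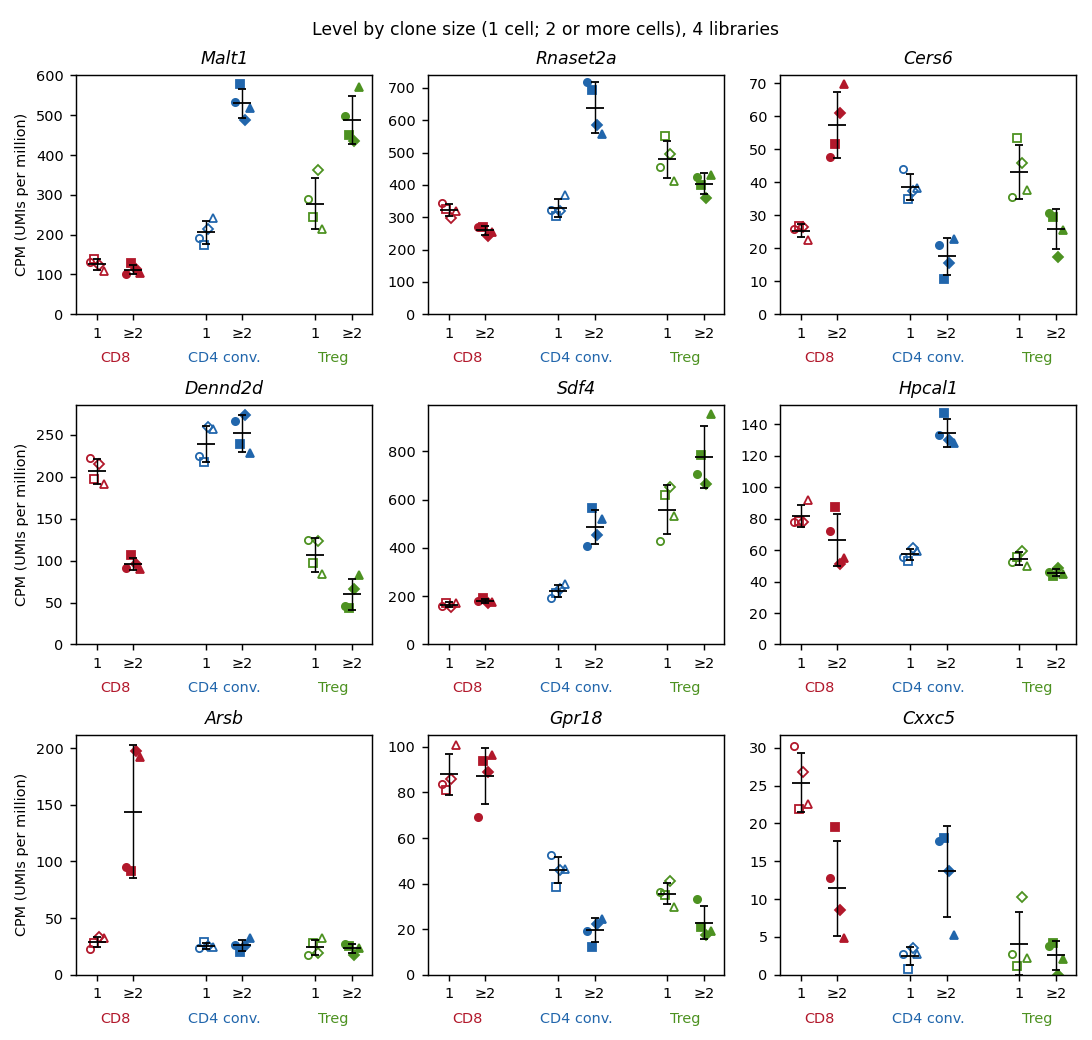
Level of each gene (CPM, linear axis from 0, a scale per gene) in single (open) and expanded (filled) cells of CD8, CD4 conventional and Treg populations. Each marker shape is 1 of 4 replicates and the bar is the mean ± SD. Malt1 in expanded CD4 conventional cells sits at 489 to 578, above all other CD8 and CD4 groups, and Arsb in expanded CD8 cells at 91.5 to 197, above every other group.

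Malt1 was far higher in expanded than in single CD4 conventional cells and hardly differed in CD8 cells. It stood at 533, 578, 489 and 518 CPM in expanded CD4 conventional cells of replicates 1 to 4 and at 192, 173, 215 and 241 in single ones. In CD8 cells it stood at 102, 128, 114 and 104 in expanded and at 131, 140, 124 and 108 in single cells. All 4 libraries were thus higher in expanded CD4 cells with no overlap, and all 4 lower in expanded CD8 cells with overlap. The log2 difference was 1.24 (SE 0.079) in CD4 conventional and -0.27 (SE 0.093) in CD8 cells, which is -1.51 (SE 0.12) for CD8 minus CD4. Over all genes 48.2% were called in CD4 conventional cells, 53.6% in CD8 cells and 11.3% for the difference, and since the choice used these contrasts nothing is read from it. Without cycling cells the CD8 value turned to 0.28 and the CD4 value was 1.61, and with 1 cell per clonotype the CD8 value was 0.14. CD62L gave the mirror image: CD62L-high and low cells stood at 151 ± 16.1 and 428 ± 18.6 (SD, n = 4) in CD4 conventional and at 126 ± 7.94 and 123 ± 12.2 in CD8 cells, with log2 differences of -1.36 (SE 0.068) and 0.16 (SE 0.080). Over all genes 43.1%, 44.9% and, for the CD8 minus CD4 difference, 6.74% were called. The small CD8 value turned to -0.18 without cycling cells and to -0.05 with 1 cell per clonotype.

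**Figure D2:**
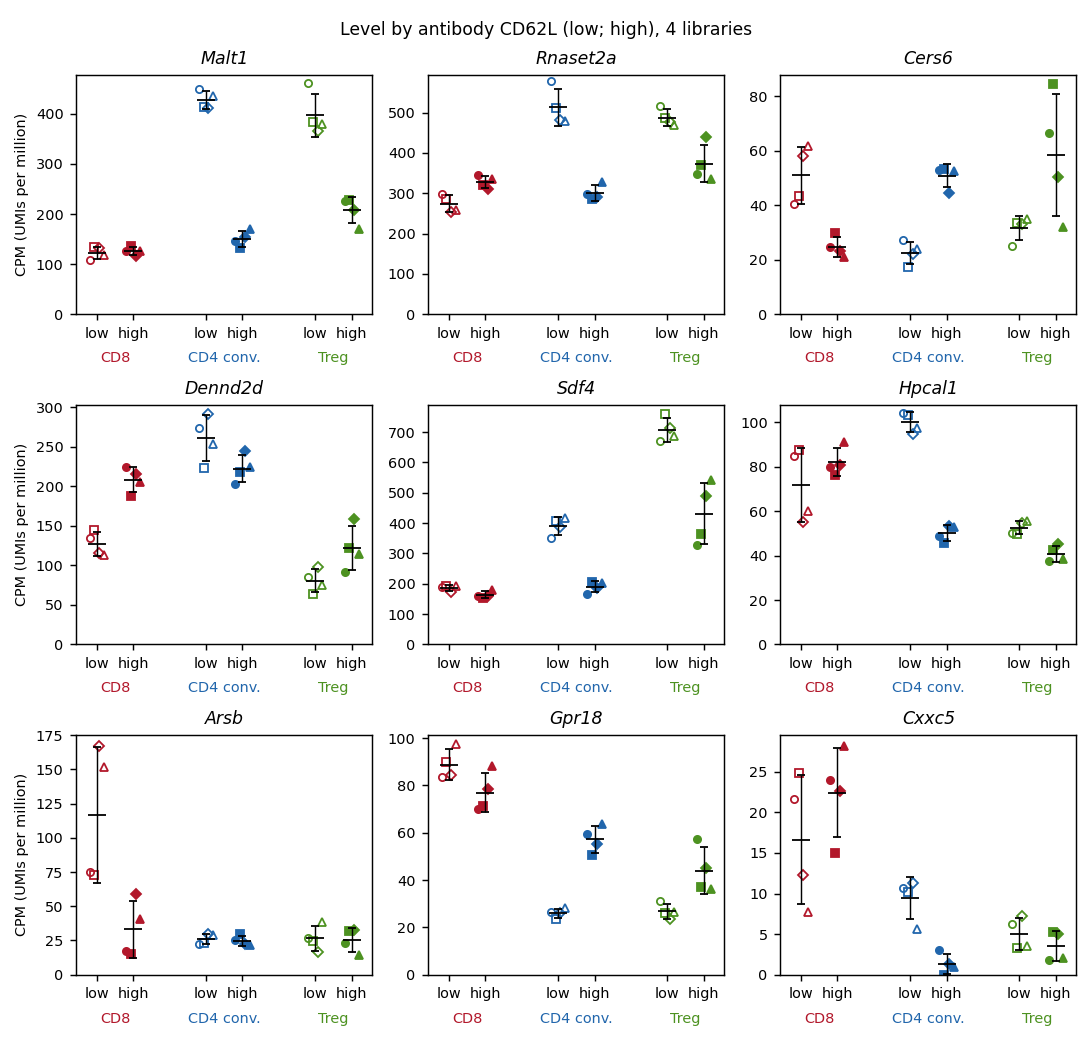
Level of each gene (CPM, linear axis from 0, a scale per gene) in CD62L-low (open) and CD62L-high (filled) cells of the 3 populations. Each marker shape is 1 of 4 replicates and the bar is the mean ± SD. Malt1 in CD4 conventional cells averages 428 in CD62L-low and 151 in CD62L-high cells.

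Splits that the choice did not use gave tests for Malt1. Among single CD62L-low cells, those above their library's median CD11a (an integrin chain that antigen-experienced T cells carry at higher density) had more Malt1 in CD4 conventional cells, at 360 ± 75.5 against 161 ± 49.6 CPM (SD, n = 4). This rise of 1.05 on the log2 scale (SE 0.10, adjusted p = 2.63e-11) was called, and the CD8 value was 0.02 (SE 0.17, adjusted p = 0.963). The CD8 minus CD4 difference was -1.04 (SE 0.21, adjusted p = 0.00377), a call that was lost without replicate 1 (adjusted p = 0.124), without cycling cells (0.468) or without the block for library (0.459). Between expanded clones, cells of clones of at least 4 cells were compared with those of 2 or 3 cells. With 1 cell per clonotype only 1 library had enough CD8 cells on both sides. No gene's CD8 value or difference in this split could therefore be checked that way. The largest clone of a library, of any lineage, held 38 to 146 cells, and the part of single clones in these sums was not tested. Malt1 fell in large CD8 clones by 0.70 (SE 0.18, adjusted p = 0.0182), was lower in all 4 libraries, and was 0.46 higher (SE 0.15, adjusted p = 0.188) in large CD4 clones, with a difference of -1.16 (SE 0.23, adjusted p = 0.0350). The CD8 call was lost without replicate 2 (adjusted p = 0.140) or 3 (0.0968), from 1500 UMIs (0.0540) and with large clones from 6 cells (0.0693), and the difference without replicate 2 (0.311), from 1500 UMIs (0.0881) and without the block (0.0501). Without cycling cells the CD8 value turned to 0.22 (adjusted p = 0.770) and the difference was -0.78 (0.673).

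Malt1 was also lower in cycling than in resting expanded cells. Its CD8 levels were 101 ± 8.06 against 206 ± 44.6 CPM (SD, n = 4), a fall of 0.99 (SE 0.15, adjusted p = 2.02e-07). In CD4 conventional cells the fall was 0.25 (SE 0.089, adjusted p = 0.0258), lost without replicate 1 (adjusted p = 0.0936), 3 (0.180) or 4 (0.166), with DESeq2 (0.156), with no filter (0.111), without the block (0.0926) and with 1 cell per clonotype (-0.07, 0.699). The difference between lineages was -0.74 (SE 0.17, adjusted p = 0.00762), lost without replicate 2 (0.176) or 3 (0.105), with DESeq2 (0.0990), without the block (0.0845), with 1 cell per clonotype (0.242) and with 4 or more cycling UMIs (0.15). In Treg, Malt1 moved in the directions seen in CD4 conventional cells. It stood at 497, 450, 436 and 571 in expanded and at 289, 245, 362 and 214 in single Treg, with no overlap, a rise of 0.85 (SE 0.14, adjusted p = 0.00446) lost with any Foxp3 barcode (adjusted p = 0.0596). It fell by 0.88 (SE 0.12, adjusted p = 5.00e-05) in CD62L-high against low Treg, at 208 ± 26.2 against 397 ± 43.0, lost with at least 2 Foxp3 UMIs (adjusted p = 0.0674). CD62L-low Treg and CD62L-low CD4 conventional cells overlapped, at 397 ± 43.0 and 428 ± 18.6, with a log2 difference of -0.14 (SE 0.052).

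Of 34 other genes of NF-kB signalling tested, 6 rose and 11 fell with expansion in CD8 cells, 9 rose and 6 fell in CD4 conventional cells, and 1 rose and 4 fell for the difference, beside 53.6%, 48.2% and 11.3% of all genes called. The list medians were -0.09, 0.00 and -0.12 beside -0.01, -0.02 and 0.02 over all genes. Tnfaip3, a feedback inhibitor of NF-kB, rose by 1.08 in CD8 cells and stood higher there for the difference (0.64, adjusted p = 0.0286). Nfkb2, a subunit of the non-canonical branch, rose by 0.76 in CD4 conventional cells. Prkcq, a kinase of T cell receptor signalling, fell by 1.06 and 0.60 in the CD8 and CD4 lineages, and Ikbkb, a kinase of the inhibitor of NF-kB, by 0.98 and 0.79. In CD62L-low Treg against CD4 conventional cells 12 of 34 rose and 4 fell, beside 31.3% of all genes called. Over 24 sums (3 populations, single and expanded, 4 libraries, so that points share libraries, and with the CD8 and CD4 sums among the values behind the choice), the patterns most like Malt1 were those of Angptl2 (Pearson r = 0.936), Lcp2 (0.936) and Lbh (0.929).

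**Figure D3:**
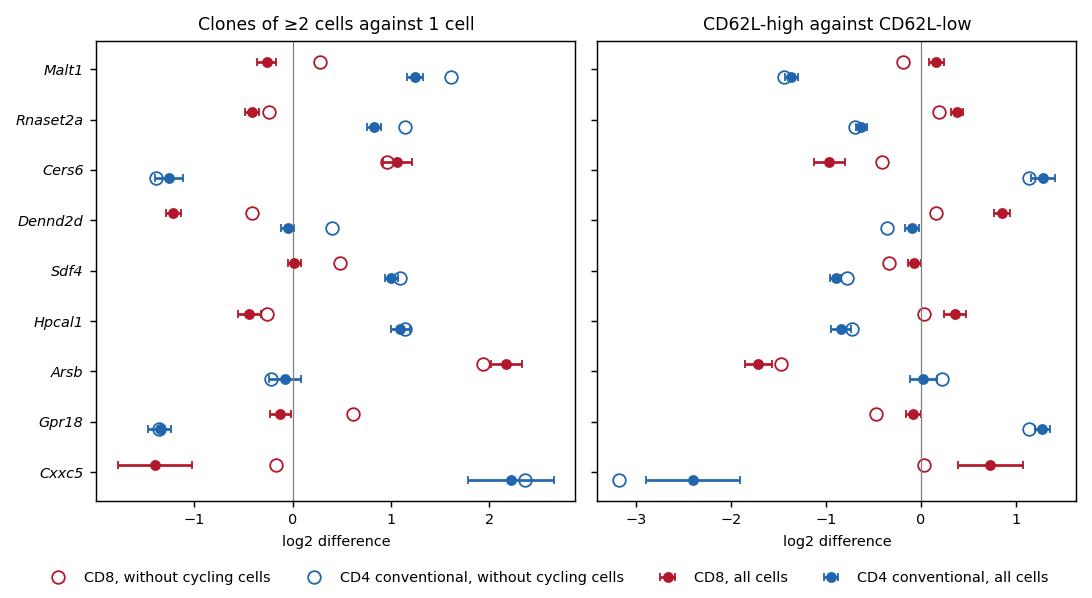
Log2 difference with clone size (expanded against single) and with CD62L (high against low) for each gene, in CD8 and in CD4 conventional cells. Filled points with SE bars are all cells and open points are cells without cycling cells. Cers6 reads 1.07 in CD8 and -1.26 in CD4 conventional cells on the clone size panel, on opposite sides of 0.

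Cers6, one of the enzymes that make ceramide, was higher in expanded CD8 cells and lower in expanded CD4 conventional cells. It stood at 47.6, 51.4, 60.9 and 69.7 CPM in expanded and at 25.7, 26.8, 26.3 and 22.6 in single CD8 cells. In CD4 conventional cells it stood at 21.0, 10.6, 15.6 and 22.9 in expanded and at 44.1, 34.8, 37.2 and 38.4 in single cells. Neither pair overlapped, and the directions were opposite in all 4 libraries. On the log2 scale the difference was 1.07 (SE 0.15) in CD8 and -1.26 (SE 0.14) in CD4 conventional cells, or 2.33 (SE 0.20) for CD8 minus CD4, and 0.96, -1.39 and 2.36 without cycling cells. By CD62L it was -0.96 (SE 0.16) and 1.29 (SE 0.13), and the CD8 value shrank to -0.41 without cycling cells.

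No call was made for Cers6 within expanded clones or within single cells. Large against small clones differed by 0.11 (SE 0.36) in CD8 and -0.79 (SE 0.40) in CD4 conventional cells, CD11a-high against low cells by 0.40 (SE 0.36) and -0.05 (SE 0.21), and cycling against resting cells by 0.41 (SE 0.26) and -0.34 (SE 0.25). The adjusted p of these 6 values ranged from 0.259 to 0.891. In Treg it rose by 0.89 (SE 0.25, adjusted p = 0.0387) in CD62L-high cells, higher in 3 of 4 libraries, and this call was lost without replicate 1 (adjusted p = 0.324), 2 (0.162) or 3 (0.0886), with DESeq2 (0.294), with 1 cell per clonotype (0.0769) and with barcodes carrying markers of other cell types kept (0.106). It was 0.59 (0.0642) with any Foxp3 barcode and 0.52 (0.736) with at least 2 Foxp3 UMIs, neither called. It stood at 30.8, 29.6, 17.5 and 25.5 in expanded and at 35.5, 53.4, 45.7 and 37.8 in single Treg, without overlap, and this difference of -0.66 (SE 0.23, adjusted p = 0.0926) was not called. CD62L-low Treg had 31.6 ± 4.53 against 22.6 ± 4.04 (SD, n = 4) in CD4 conventional cells, a log2 difference of 0.48 (SE 0.15).

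Of 25 other genes of sphingolipid metabolism tested, 6 rose and 6 fell in CD8 cells, 5 rose and 8 fell in CD4 conventional cells, and 1 was called for the difference, beside 53.6%, 48.2% and 11.3% of all genes called. That 1 was Degs1, the desaturase that completes ceramide (0.41, adjusted p = 0.0385). Ugcg, which turns ceramide into glucosylceramide, fell by 1.47 and 1.75 in the CD8 and CD4 lineages, and Cerk, the ceramide kinase, by 1.16 and 1.60. Ormdl2, a regulator of the first step of sphingolipid synthesis, rose by 0.58 and 0.52. The list medians were -0.01 in CD8 and -0.11 in CD4 conventional cells. The patterns most like Cers6 over the 24 sums were those of Twf2 (r = 0.749), Ppm1j (0.747) and Ptp4a3 (0.746).

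Arsb was higher in expanded and in CD62L-low CD8 cells and nearly level across the CD4 conventional groups. It stood at 95.1, 91.5, 197 and 192 CPM in expanded CD8 cells, against 23.1, 28.1, 33.3 and 32.0 in single CD8 cells. In CD4 conventional cells it stood at 25.8, 20.1, 25.6 and 32.2 in expanded and at 23.6, 29.1, 25.0 and 24.2 in single cells. The expanded CD8 values formed 2 pairs, replicates 3 and 4 above replicates 1 and 2, and every one lay above every single cell sum. As a log2 difference this was 2.18 (SE 0.16) in CD8 and -0.08 (SE 0.16) in CD4 conventional cells, or 2.26 (SE 0.23) for CD8 minus CD4, and 1.94, -0.22 and 2.16 without cycling cells. With 1 cell per clonotype the CD8 value was 1.63. By CD62L it was -1.71 (SE 0.14) in CD8, at 33.0 ± 20.9 against 117 ± 49.8 (SD, n = 4), and 0.03 (SE 0.14) in CD4 conventional cells.

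Within expanded CD8 cells Arsb rose further with clone size. It stood at 156 ± 55.2 in large and 76.6 ± 38.9 (SD, n = 4) in small clones, higher in all 4 libraries, a rise of 1.05 (SE 0.16, adjusted p = 2.15e-04). It kept its call without each replicate and was 1.29 (adjusted p = 0.0616) without cycling cells. Arsb could not be checked there with 1 cell per clonotype, as only 1 library had enough cells on both sides. It also rose by 1.69 (SE 0.21, adjusted p = 3.98e-09) in cycling against resting expanded CD8 cells, at 153 ± 56.3 against 48.9 ± 26.0. Resting expanded CD8 cells, with 0 cycling UMIs, had a higher mean than all single CD8 cells, cycling ones included (48.9 and 29.1). With only cells of under 2 cycling UMIs the means were 81.8 in expanded and 18.5 in single CD8 cells. Neither pair of means was tested. For the difference between lineages the cycling split gave 1.23 (SE 0.34, adjusted p = 0.0399), lost without replicate 1 (adjusted p = 0.282), 2 (0.286) or 3 (0.0898), with DESeq2 (0.182), without the block (0.553), with 1 cell per clonotype (0.313) and with 4 or more cycling UMIs (0.0742). The clone size split gave 0.77 (SE 0.25, adjusted p = 0.133). In CD11a-high single CD8 cells it rose by 1.06 (SE 0.36, adjusted p = 0.0365), lost without replicate 2 (adjusted p = 0.202) or 3 (0.395), with DESeq2 (0.179) and without the block (0.0610), and turned to -0.62 (0.786) without cycling cells. In Treg neither split gave a call: expanded against single was -0.01 (SE 0.26, adjusted p = 0.989) and CD62L-high against low -0.09 (SE 0.33, adjusted p = 0.938).

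Rnaset2a differed with clone size in both lineages, in opposite directions. It stood at 717, 694, 587 and 559 CPM in expanded and at 323, 305, 318 and 369 in single CD4 conventional cells. CD8 cells gave 270, 271, 243 and 253 in expanded and at 343, 326, 298 and 320 in single cells. Neither pair overlapped. In the fit the log2 difference was 0.83 (SE 0.068) in CD4 conventional and -0.41 (SE 0.073) in CD8 cells, or -1.24 (SE 0.10) for CD8 minus CD4, and 1.14, -0.24 and -1.38 without cycling cells. By CD62L it was -0.62 (SE 0.061) in CD4 conventional and 0.38 (SE 0.065) in CD8 cells.

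The opposite directions of Rnaset2a were also seen among single cells. CD11a-high against low cells rose by 0.45 (SE 0.089, adjusted p = 9.79e-05) in CD4 conventional cells, at 433 ± 57.0 against 293 ± 19.2 (SD, n = 4), and fell by 0.40 (SE 0.12, adjusted p = 0.0112) in CD8 cells, lower in 3 of 4 libraries. The CD8 call was lost without replicate 1 (adjusted p = 0.0616) or 4 (0.185), with DESeq2 (0.0678) and, at -0.30, without cycling cells (0.360). The difference was -0.85 (SE 0.15, adjusted p = 5.12e-04), lost only without replicate 4 (adjusted p = 0.0513) among all alternatives run. In large against small clones the values were -0.34 (SE 0.12, adjusted p = 0.0598) in CD8 and 0.40 (SE 0.11, adjusted p = 0.0729) in CD4 conventional cells, neither called, while the difference of -0.73 (SE 0.16, adjusted p = 0.0298) was called and was lost without replicate 1 (adjusted p = 0.104), 2 (0.271) or 3 (0.0762), without the block (0.0673) and from 1500 UMIs (0.0507). Without cycling cells that difference was as large, at -0.77, and not called (adjusted p = 0.673). Cycling cells had less of it in CD4 conventional cells by 0.34 (SE 0.078, adjusted p = 4.54e-04). The CD8 value of -0.27 (SE 0.11, adjusted p = 0.0593) was not called, though lower in all 4 libraries. The lineages differed by 0.07 (SE 0.13, adjusted p = 0.924). In Treg the values of -0.23 (SE 0.11, adjusted p = 0.213) with expansion and -0.33 (SE 0.11, adjusted p = 0.100) with CD62L were not called.

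The copy Rnaset2b was detected at only 0.54 to 9.5 CPM, and its clone size values, not tested here, were -1.39 (SE 0.35) in CD8 and 0.09 (SE 0.22) in CD4 conventional cells. Of the 45 tested lysosomal genes, Rnaset2b among them and Arsb and Rnaset2a left out, 4 rose and 23 fell in CD8 cells, 5 rose and 19 fell in CD4 conventional cells, and 1 rose and 6 fell for the difference, beside 53.6%, 48.2% and 11.3% of all genes called. The list medians were -0.40 and -0.15. Ctsb, a lysosomal protease, rose by 1.01 and 1.21 in the CD8 and CD4 lineages, and Npc2, which carries cholesterol out of lysosomes, fell by 1.43 and 1.33. Ctsd, an aspartic protease, was the 1 gene higher for the difference (0.62, adjusted p = 3.72e-04), and Sgsh, a heparan sulfate sulfatase, was among the lower ones (-1.26, adjusted p = 0.00227). The patterns most like Arsb were those of Sub1 (r = 0.963), Ppp2r2c (0.929) and Taf15 (0.917), and those most like Rnaset2a were Prkca (0.879), Stx6 (0.871) and Fam43a (0.870).

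**Figure D4:**
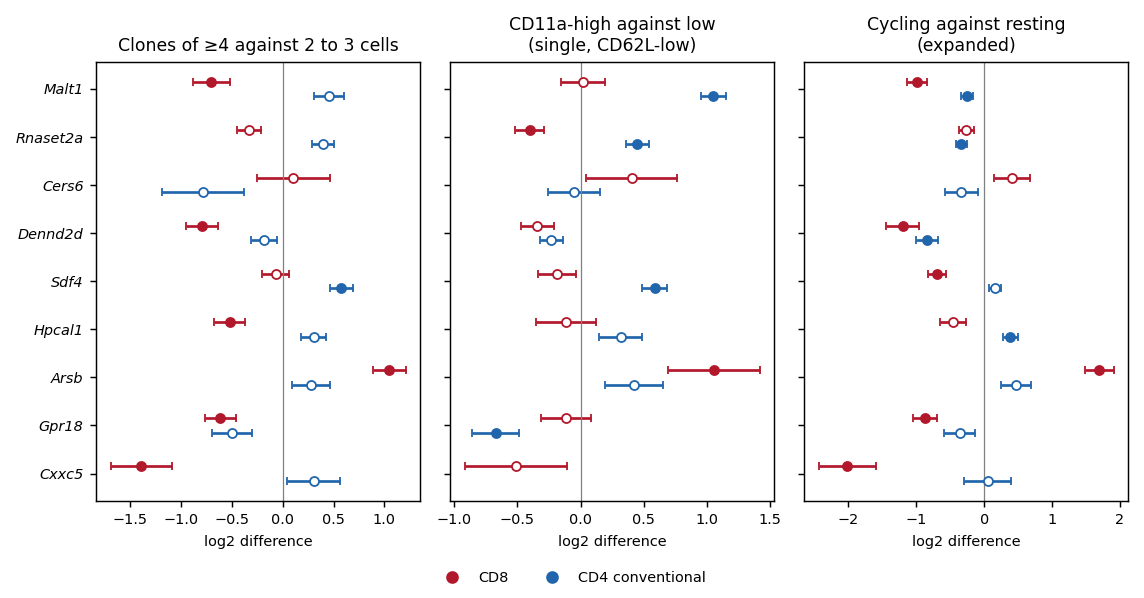
Log2 difference ± SE of each gene in 3 splits that the choice of the genes did not use: large against small expanded clones, CD11a-high against low single CD62L-low cells, and cycling against resting expanded cells, in CD8 and CD4 conventional cells. Filled points have an adjusted p under 0.05 in edgeR's quasi-likelihood test; Cxxc5 in CD4 conventional cells is left out of the CD11a panel because its low side held 1 UMI. Malt1 in the CD11a panel reads 1.05 in CD4 conventional and 0.02 in CD8 cells.

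Sdf4 was higher in expanded CD4 conventional cells and nearly level in CD8 cells. It stood at 409, 565, 455 and 521 CPM in expanded and at 193, 213, 230 and 250 in single CD4 conventional cells, without overlap. In CD8 cells it stood at 180, 191, 171 and 175 in expanded and at 161, 174, 154 and 172 in single cells, with overlap. The log2 difference was 1.00 (SE 0.062) in CD4 conventional and 0.02 (SE 0.070) in CD8 cells, or -0.99 (SE 0.093) for CD8 minus CD4. Without cycling cells it was 1.10 and 0.49, which narrowed the difference to -0.61. By CD62L it was -0.90 (SE 0.056) and -0.07 (SE 0.064).

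Sdf4 rose in CD4 conventional cells in 2 of the 3 other splits. CD11a-high single cells had 309 ± 47.6 against 190 ± 20.9 (SD, n = 4), a rise of 0.59 (SE 0.10, adjusted p = 8.54e-06), and large clones had 545 ± 81.9 against 353 ± 26.6, a rise of 0.58 (SE 0.11, adjusted p = 0.00800). The latter was lost without replicate 2 (adjusted p = 0.125), from 1500 UMIs (0.0565) and with large clones from 6 cells (0.0664), and was 0.14 (0.830) with 1 cell per clonotype. The CD8 values were -0.19 (SE 0.15, adjusted p = 0.458) and -0.07 (SE 0.13, adjusted p = 0.764). The difference between lineages was called for CD11a at -0.78 (SE 0.18, adjusted p = 0.0349), lost without replicate 1 (adjusted p = 0.0708), 3 (0.316) or 4 (0.219), with DESeq2 (0.168), without the block (0.166) and, at -0.44, without cycling cells (0.693). It was not called for clone size at -0.65 (SE 0.17, adjusted p = 0.0760). Cycling expanded CD8 cells had less Sdf4 than resting ones, at 168 ± 10.7 against 286 ± 49.7, a fall of 0.70 (SE 0.13, adjusted p = 1.30e-05), while CD4 conventional cells differed by 0.16 (SE 0.089, adjusted p = 0.185). That difference of -0.85 (SE 0.15, adjusted p = 3.74e-04) kept its call in every alternative run.

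Expanded Treg had the highest Sdf4 levels, and single Treg overlapped expanded CD4 conventional cells. Expanded Treg stood at 705, 787, 663 and 953 CPM and single Treg at 430, 621, 654 and 531, without overlap, a rise of 0.50 (SE 0.11, adjusted p = 0.0185) that was lost without replicate 1 (adjusted p = 0.128) and without cycling cells (0.622). CD62L-high Treg fell by 0.65 (SE 0.12, adjusted p = 0.00121), lost with at least 2 Foxp3 UMIs (adjusted p = 0.419). CD62L-low Treg had 707 ± 39.1 against 391 ± 29.1 (SD, n = 4) in CD4 conventional cells, a log2 difference of 0.82 (SE 0.048), higher in all 4 libraries. Its neighbour Tnfrsf4, the OX40 receptor of activated T cells, rose with expansion in both CD8 (1.66, adjusted p = 0.00390) and CD4 conventional cells (1.72, adjusted p = 1.78e-04), with a difference of -0.06 (adjusted p = 0.951), and rose by 1.57 in CD62L-low Treg. Over the 24 sums Sdf4 and Tnfrsf4 correlated at r = 0.940, and the part of Tnfrsf4 reads in the Sdf4 count was not tested.

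Hpcal1 was higher in expanded CD4 conventional cells and a little lower in expanded CD8 cells. It stood at 133, 147, 130 and 128 CPM in expanded and at 55.9, 53.2, 61.1 and 59.2 in single CD4 conventional cells, far apart. Its CD8 levels were 71.8, 87.2, 51.4 and 55.1 in expanded and at 77.5, 78.6, 77.9 and 92.0 in single cells, with replicate 2 going the other way. On the log2 scale the difference was 1.09 (SE 0.097) in CD4 conventional and -0.44 (SE 0.11) in CD8 cells, or -1.54 (SE 0.15) for CD8 minus CD4, and 1.14, -0.26 and -1.40 without cycling cells. With 1 cell per clonotype the CD8 value was -0.07. By CD62L it was -0.84 (SE 0.10) and 0.36 (SE 0.12), and the CD8 value was 0.04 without cycling cells.

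Most calls for Hpcal1 were lost when 1 replicate was left out. In large CD8 clones it fell by 0.52 (SE 0.15, adjusted p = 0.0230) and the difference from CD4 conventional cells was -0.83 (SE 0.19, adjusted p = 0.0411). Both were lost without replicate 1 (adjusted p = 0.0896 and 0.231), 2 (0.147 and 0.318) or 3 (0.0900 and 0.116), and with DESeq2 (0.0511 and 0.0622). Without cycling cells the CD8 value was -0.02 (adjusted p = 0.992), while the difference was as large, at -0.81, and not called (0.969). Cycling CD4 conventional cells had more of it, at 140 ± 12.8 against 110 ± 6.36 (SD, n = 4), a rise of 0.39 (SE 0.12, adjusted p = 0.00807) lost without replicate 2 (adjusted p = 0.0601) or 4 (0.0519), with DESeq2 (0.0674) and, at 0.19, with 1 cell per clonotype (0.416). The difference of -0.85 (SE 0.23, adjusted p = 0.0331) was lost without any 1 of the replicates (adjusted p from 0.0620 to 0.234), with DESeq2 (0.105) and without the block (0.184). CD11a gave no call. Treg stood at 45.7 ± 2.39 when expanded and 54.4 ± 4.08 when single, a difference of -0.25 (SE 0.18, adjusted p = 0.447) that was not called. CD62L-low Treg had 52.4 ± 2.97 against 99.9 ± 4.55 in CD4 conventional cells, a log2 difference of -0.97 (SE 0.092), lower in all 4 libraries, which was -0.48 without cycling cells.

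Of 8 other calcium-binding proteins of the secretory pathway and of the neuronal calcium sensor family, 3 rose and 1 fell with expansion in CD8 cells, 2 rose and 3 fell in CD4 conventional cells, and 2 rose and 1 fell for the difference, beside 53.6%, 48.2% and 11.3% of all genes called. Ncald, a sensor of the Hpcal1 family, rose by 2.05 in CD8 and 0.76 in CD4 conventional cells, with a difference of 1.29 (adjusted p = 0.0218). Rcn3, a calcium-binding protein of the endoplasmic reticulum, fell by 3.15 and 1.56. The patterns most like Sdf4 were those of Srgn (r = 0.982), Serpina3g (0.968) and Icos (0.968), and those most like Hpcal1 were Stat4 (0.897), Plekho1 (0.878) and Hook3 (0.869).

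Dennd2d was lower in expanded CD8 cells and level in CD4 conventional cells. It stood at 90.8, 106, 96.0 and 89.9 CPM in expanded and at 222, 197, 215 and 191 in single CD8 cells, without overlap. In CD4 conventional cells it stood at 267, 239, 274 and 228 in expanded and at 224, 218, 259 and 256 in single cells, with overlap. As a log2 difference this was -1.22 (SE 0.076) in CD8 and -0.05 (SE 0.066) in CD4 conventional cells, or -1.16 (SE 0.10) for CD8 minus CD4. Without cycling cells these were -0.41, 0.40 and -0.81. By CD62L the values were 0.86 (SE 0.082) in CD8 and -0.09 (SE 0.073) in CD4 conventional cells, and 0.16 and -0.35 without cycling cells.

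Cycling expanded cells had less Dennd2d than resting ones in both lineages, by 1.20 (SE 0.25, adjusted p = 0.00256) in CD8 and 0.84 (SE 0.16, adjusted p = 0.00114) in CD4 conventional cells. The levels were 82.6 ± 4.50 against 199 ± 72.7 and 201 ± 33.3 against 370 ± 49.1 (SD, n = 4), without overlap, both calls held in every alternative run, and the lineages differed by -0.36 (SE 0.28, adjusted p = 0.748). In large CD8 clones it fell by 0.79 (SE 0.16, adjusted p = 0.00252), lower in all 4 libraries, and stood at -0.32 (adjusted p = 0.849) without cycling cells. In Treg it fell with expansion by 0.88 (SE 0.21, adjusted p = 0.0200) and was higher by 0.62 (SE 0.16, adjusted p = 0.0230) in CD62L-high cells, the same directions as in CD8 cells. The first was lost without replicate 1 (adjusted p = 0.146), 2 (0.110) or 3 (0.0948) and turned to 0.29 (0.837) without cycling cells, in the 2 libraries that could then be used, and the second was lost without replicate 2 (0.0987), 3 (0.154) or 4 (0.0692) and without cycling cells (0.0957). With DESeq2 (adjusted p = 0.0880 and 0.229), 1 cell per clonotype (0.319 and 0.111) or at least 2 Foxp3 UMIs (0.177 and 0.907) neither was called. CD62L-low Treg had 80.5 ± 14.6 against 261 ± 29.2 in CD4 conventional cells, a log2 difference of -1.74 (SE 0.070), lower in all 4 libraries.

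Of 14 other DENN domain genes tested, 2 rose and 9 fell in CD8 cells, 9 fell in CD4 conventional cells, and 2 rose and 2 fell for the difference, beside 53.6%, 48.2% and 11.3% of all genes called. The list medians were -0.56 and -0.39. Madd, an activator of Rab GTPases of secretory vesicles, fell by 1.03 in CD8 cells and was lower there for the difference (-0.63, adjusted p = 4.17e-04). Dennd4a rose by 0.74 in CD8 cells and was higher for the difference (0.74, adjusted p = 0.00303). In CD62L-low Treg against CD4 conventional cells 2 of 13 rose and 7 fell, beside 31.3% of all genes called. The patterns most like Dennd2d were those of Mbp (r = 0.972), Rnf145 (0.936) and Ehd3 (0.934).

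Gpr18 was lower in expanded CD4 conventional cells and level in CD8 cells. It stood at 19.1, 12.3, 22.2 and 24.6 CPM in expanded and at 52.7, 38.6, 46.2 and 46.4 in single CD4 conventional cells, without overlap. CD8 cells gave 69.4, 93.7, 89.0 and 96.6 in expanded and at 83.7, 81.1, 85.9 and 101 in single cells, higher in 2 libraries and lower in 2. In the fit the log2 difference was -1.35 (SE 0.12) in CD4 conventional and -0.12 (SE 0.10) in CD8 cells, or 1.23 (SE 0.16) for CD8 minus CD4. Without cycling cells these were -1.36, 0.61 and 1.97, and among CD62L-low cells alone the difference was 0.69. By CD62L the values were 1.28 (SE 0.079) in CD4 conventional and -0.08 (SE 0.080) in CD8 cells.

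Gpr18 fell in CD11a-high single CD4 conventional cells, at 27.3 ± 3.50 against 40.4 ± 3.36 (SD, n = 4), by 0.67 (SE 0.18, adjusted p = 0.00475), lost without replicate 2 (adjusted p = 0.0578), with DESeq2 (0.0946) and without cycling cells (0.0541). The CD8 value was -0.12 (SE 0.20, adjusted p = 0.758) and the difference 0.56 (SE 0.27, adjusted p = 0.565). In CD8 cells it fell in large clones by 0.61 (SE 0.15, adjusted p = 0.00979) and in cycling cells by 0.87 (SE 0.17, adjusted p = 5.66e-05), at 78.3 ± 12.4 against 148 ± 40.9 for the latter. The first was lost without replicate 2 (adjusted p = 0.0595) or 3 (0.106) and turned to 0.41 (0.551) without cycling cells, and the second was -0.49 (0.175) with 1 cell per clonotype. In Treg, expanded cells stood at 22.8 ± 7.20 and single cells at 35.6 ± 4.66, and neither this difference of -0.58 (SE 0.24, adjusted p = 0.167) nor the CD62L difference of 0.78 (SE 0.24, adjusted p = 0.0553) was called. Ubac2, the gene around Gpr18, differed by -0.06 in CD8 and fell by 0.54 (adjusted p = 8.78e-07) in CD4 conventional cells, with a difference of 0.48 (adjusted p = 0.00238), and its share in the Gpr18 count was not tested.

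Of 19 other G protein-coupled receptors of lymphocytes, 5 rose and 10 fell in CD8 cells, 3 rose and 10 fell in CD4 conventional cells, and 4 rose and 4 fell for the difference, beside 53.6%, 48.2% and 11.3% of all genes called. Ptger2, a prostaglandin E2 receptor, rose by 1.86 and 1.84 in the CD8 and CD4 lineages. S1pr1, which T cells use to leave tissues and lymph nodes, fell by 1.59 in CD4 conventional cells, and Gpr15, a homing receptor, fell by 2.89 in CD8 cells and was lower there for the difference (-2.84, adjusted p = 0.00731). Gpr65, a proton-sensing receptor, was higher for the difference (0.94, adjusted p = 6.06e-04). The patterns most like Gpr18 were those of Phf11c (r = 0.945), Tm6sf1 (0.933) and Rcn1 (0.931).

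Cxxc5 had the widest split of the 9, on few UMIs. It gave 27, 36, 44 and 19 UMIs in expanded and 102, 35, 50 and 41 in single CD8 cells, and 63, 53, 52 and 19 in expanded and 19, 3, 23 and 16 in single CD4 conventional cells. As CPM it stood at 12.8, 19.5, 8.54 and 4.87 against 30.2, 21.8, 26.9 and 22.6 in CD8 cells, and at 17.7, 18.1, 13.7 and 5.18 against 2.70, 0.746, 3.55 and 2.73 in CD4 conventional cells. Neither pair overlapped, and the directions were opposite. The log2 difference was -1.40 (SE 0.38) in CD8 and 2.22 (SE 0.43) in CD4 conventional cells, or -3.62 (SE 0.58) for CD8 minus CD4. Without cycling cells the CD8 value was -0.18, with equal means of 29.6 in expanded and single cells, while the CD4 value was 2.36 and the difference -2.53. By CD62L the values were 0.73 (SE 0.34) in CD8 and -2.40 (SE 0.50) in CD4 conventional cells, of which the CD8 value was 0.03 without cycling cells and the CD4 value was -0.50 with barcodes carrying markers of other cell types kept.

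Within expanded CD8 cells Cxxc5 was lower in large clones and in cycling cells. The first fell by 1.39 (SE 0.30, adjusted p = 0.00370), at 9.09 ± 4.86 against 23.1 ± 9.06 (SD, n = 4), and the second by 2.02 (SE 0.42, adjusted p = 1.13e-04), at 8.37 ± 4.51 against 34.7 ± 18.4, lower in 4 of 4 libraries in each. The first was lost without the block (-1.50, adjusted p = 0.0611), and without cycling cells Cxxc5 was too low for that test. CD4 conventional cells gave no call in these splits, and the CD8 minus CD4 differences were -1.69 (SE 0.39, adjusted p = 0.0402) and -2.06 (SE 0.52, adjusted p = 0.0218). Each difference was lost without replicate 1 (adjusted p = 0.199 and 0.166), 2 (0.205 and 0.0728) or 3 (0.144 and 0.217), with DESeq2 (0.0863 and 0.0574) and without the block (0.231 and 0.236). Among single CD62L-low CD4 conventional cells, 34 UMIs lay on the CD11a-high and 1 on the CD11a-low side, a ratio per UMI of 21.2 (95% exact interval 3.55 to 860.5, counting error only), which edgeR's test called (adjusted p = 6.97e-04). The difference between lineages in that split was called (adjusted p = 0.0200) and lost without replicate 1 (0.146), 3 (0.144) or 4 (0.174), without the block (0.117) and without cycling cells (0.140). Cxxc5 was too low in Treg for 2 of the tests, with 0 to 4 UMIs in expanded and 1 to 9 in single cells of a library. CD62L-low Treg had less than CD4 conventional cells, at 5.05 ± 1.98 against 9.45 ± 2.58, a log2 difference of -0.99 (SE 0.30).

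Of 21 other CXXC and Wnt pathway genes, 2 rose and 14 fell in CD8 cells, 4 rose and 12 fell in CD4 conventional cells, and 1 rose and 2 fell for the difference, beside 53.6%, 48.2% and 11.3% of all genes called. The list medians were -0.31 and -0.25. Dnmt1, the maintenance DNA methyltransferase, rose by 1.04 and 0.58 in the CD8 and CD4 lineages, Lef1, a Wnt-responsive transcription factor of naive T cells, fell by 2.90 and 2.68, and Tet1, a CXXC dioxygenase of methylated cytosine, by 1.77 and 2.17. Axin2 and Apc, of the complex that degrades beta-catenin, were lower for the difference (-0.82 and -0.57). The patterns most like Cxxc5 were those of A630001G21Rik (r = 0.83), Lgals3bp (0.83) and Trmt44 (0.82).

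**Figure D5:**
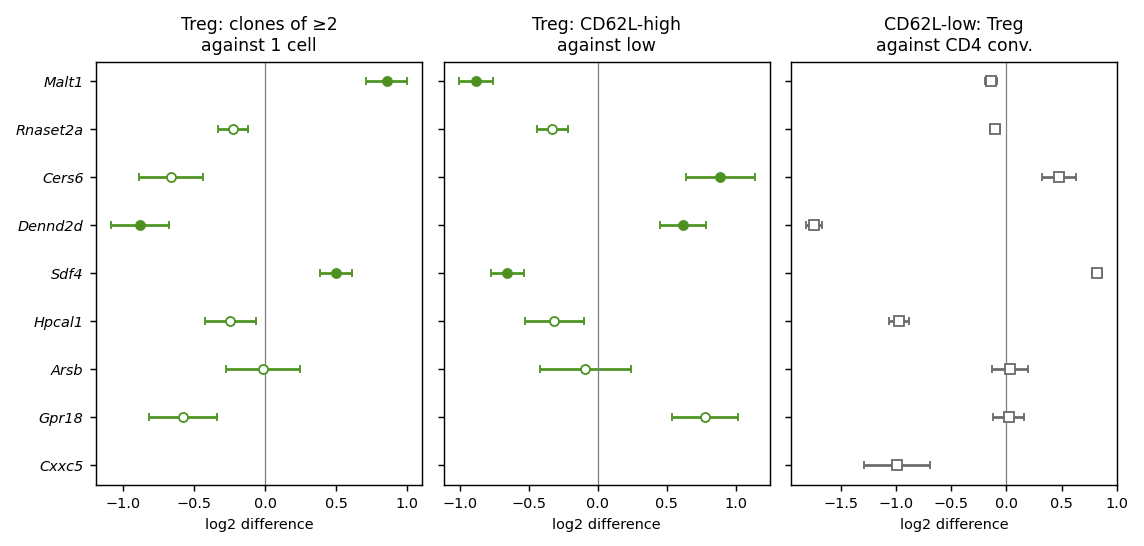
Log2 difference ± SE of each gene in 3 Treg comparisons: expanded against single Treg, CD62L-high against low Treg, and CD62L-low Treg against CD62L-low CD4 conventional cells. Filled circles have an adjusted p under 0.05 in edgeR's quasi-likelihood test, squares in the last panel carry no test because the choice used the CD4 side, and Cxxc5 has no point in the first 2 panels because it was too low to test. Malt1 reads 0.85 with expansion and -0.88 with CD62L, and Dennd2d reads -1.74 against CD4 conventional cells.

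Across the 9 genes, the splits that the choice did not use gave these counts, each beside its share of all tested genes. Their CD8 and CD4 cells are among those behind the choice, so the counts in these lineages are not independent of it. In large against small clones 6 of 9 were called in CD8 cells (15.3% of all genes), 1 in CD4 conventional cells (1.52%) and 4 for the difference (1.12%), all 4 lower in CD8. For CD11a it was 2 in CD8 (17.1%), 5 in CD4 conventional cells (25.0%) and 4 for the difference (0.437%), again all lower in CD8. For cycling it was 6 (29.3%), 4 (31.8%) and 5 (1.53%), of which Arsb alone was higher in CD8. Each member called for a difference had the direction of its clone size difference, which the choice used. The counts for the difference were lower when any 1 of several libraries was left out, and also without the block and with DESeq2. Large against small clones lost all 4 without replicate 2 and gave 1 without replicate 1 or 3, CD11a gave 1 without replicate 1 or 4 and 2 without replicate 3, and cycling gave 1 without replicate 2 or 3 and 2 without replicate 1. In CD8 cells the large clone count was 3 without replicate 2 or 3. Neither that count nor the one for the large clone difference could be checked with 1 cell per clonotype. Without cycling cells no member was called in large CD8 clones or for their difference, where Cxxc5 was not tested. Some of these values stayed as large, Arsb in CD8 at 1.29 and the differences of Hpcal1 and Rnaset2a at -0.81 and -0.77, and others did not, as Malt1 and Hpcal1 in CD8 at 0.22 and -0.02. The 2 calls for CD11a in CD8 cells and 3 of the 4 for its difference were lost too, while Rnaset2a kept its difference at -0.90 (adjusted p = 0.00264). In Treg 3 of the 8 tested members were called with expansion (6.27% of all genes) and 4 of 8 with CD62L (5.21%). The first count was 1 without replicate 1 and 2 without replicate 2 or 3, and the second 2 without replicate 2 or 3. Against CD62L-low CD4 conventional cells 31.3% of all genes were called, and since the choice used the CD4 side no count of members is read against it.

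The direction of the CD8 minus CD4 difference was kept by all 9 genes in 14 of 14 alternatives for clone size and 12 of 12 for CD62L. Since the choice used these contrasts in the same libraries, this is a description and nothing is read from it. With 1 cell per clonotype the clone size differences ranged from -3.20 for Cxxc5 to 2.14 for Cers6.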

How the data were processed

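The 9 genes and every gene list were chosen with earlier results of these data known. The authors deposited, per library, a matrix of UMI counts of 31053 genes and 4 antibodies and a table of receptor contigs. Per the file headers the matrices came from Cell Ranger 4.0.0, and per the submitters' processing notes the build was mm10 and Seurat was used. The aligner's settings and the use of strand in counting are not given in the sources used here.

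A barcode was used if it had 500 or more UMIs from 300 or more genes, no more than 8% of them mitochondrial, a Cd3 UMI, and few markers of B, myeloid, acinar or endocrine cells. No doublet caller was run, and barcodes with more than 1 productive beta chain were left out. A clonotype is 1 beta chain with 1 or 2 alpha chains, identical in nucleotides of the CDR3. CD11a sides are above and up to the median of each library and lineage. Cycling cells have at least 2 UMIs of the cycling list and resting cells 0.

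UMI counts were summed per population and library, over at least 20 cells. edgeR 4.0.16 (R 4.3.3) was run with filterByExpr, TMM scaling, library within lineage as a block and the robust quasi-likelihood F test, with Benjamini-Hochberg adjustment over all tested genes. An SE is the log2 difference over the root of F. The pairing is by library, since both sides of a comparison come from the same one, and deviations from the group means correlated at -0.017 to 0.309 within a library. Alternatives were DESeq2 1.42.0, DESeq2 size factors, no filter, no block, each replicate left out, other gates and cells without cycling ones. Besides the members, named genes are Rnaset2b, genes overlapping a member, the 3 most alike by correlation, and at most 2 called genes each way from each list. Overlapping genes were added after the sequences were seen. The scripts were tested on simulated counts.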

Additional observations from a re-analysis of the deposited data

Results flagged for a closer look

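Across the sums of 4 libraries, 1 value lay far from the other 3: Hpcal1 in single CD8 cells stood at 92.0 CPM (counts scaled to 1000000 UMIs) in replicate 4, against 77.5, 78.6 and 77.9 in the others. Chance flags about 1 in 20 groups, and 54 were checked.

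The effect of a split differed between the lineages, by a test of the difference itself in edgeR, in 13 cases, all given as CD8 minus CD4 conventional on the log2 scale. The cells of these splits are among those behind the choice of the genes. In large against small clones these were Malt1 at -1.16, Rnaset2a at -0.73, Hpcal1 at -0.83 and Cxxc5 at -1.69. In CD11a-high against low single cells they were Malt1 at -1.04, Rnaset2a at -0.85, Sdf4 at -0.78 and Cxxc5 at -4.25, the last a fitted value on 1 UMI in CD11a-low CD4 conventional cells. In cycling against resting expanded cells they were Malt1 at -0.74, Sdf4 at -0.85, Hpcal1 at -0.85, Arsb at 1.23 and Cxxc5 at -2.06.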

How the results depend on the processing

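The members kept the direction of the CD8 minus CD4 difference for clone size and CD62L under every alternative run. They were chosen on these contrasts in the same libraries, so this too is only a description. Of 622 alternative values of called members, 458 kept call and direction, 160 lost the call and 4 reversed. Among the 622 are values of CD62L-low Treg against CD4 conventional cells. The choice used the CD4 side of those, so for them the tally is only a description. Without cycling cells the reversed ones were Malt1 (0.22) and Gpr18 (0.41) in large CD8 clones, Arsb in CD11a-high CD8 cells (-0.62) and Dennd2d with expansion in Treg (0.29). Malt1 in CD8 cells reversed to 0.28 with clone size and -0.18 with CD62L without cycling cells, and to 0.14 and -0.048 with 1 cell per clonotype. The cause was not tested. Depth limits Cxxc5, with 0 to 9 UMIs in the clone size sums of Treg, where it could not be tested.

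Counts of called genes moved as follows, with called members named as such, and with "difference" for CD8 minus CD4. Without cycling cells clone size gave 1781 in CD8, 2778 in CD4 and 138 for the difference, and CD62L 1252, 3072 and 277. Large clones gave 130, 379 and 2 (members 0, 4 and 0), and CD11a 255, 971 and 18 (members 0 in CD8 and 1 for the difference). Treg expansion gave 52 (members 1) and Treg against CD4 1163. With 1 cell per clonotype clone size gave 2691, 2987 and 92, CD62L 2468 in CD8 and 215 for the difference, large clones in CD4 34 (members 0), cycling 1140, 1639 and 14 (members 2 in CD4 and 1 for the difference), Treg expansion 282, and Treg CD62L 2 members. In CD62L-low cells clone size gave 3687, 2898 and 559.

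Without the replicate block the difference gave 781 for clone size, 291 for CD62L, 10 for large clones (members 0), 13 for CD11a (members 1) and 14 for cycling (members 1), while CD4 large clones gave 81 and CD8 CD11a 1 member. DESeq2 gave 613 and 454 for the clone size and CD62L differences, 935 for CD4 CD11a, 20 for its difference (members 2) and 0 members for CD8 CD11a. It gave 2 members for the large clone difference, 1921 for CD4 cycling (members 2) and 62 for its difference (members 1). For Treg expansion it gave 153, for Treg CD62L 175 (members 2) and for Treg against CD4 1781. With no filter on low counts the CD62L difference gave 1192, CD4 large clones 418 (members 4), their difference 483, the CD11a difference 75 and Treg expansion 855. Keeping barcodes with markers of other cells gave 2 members for CD4 large clones, 47 for the difference (members 2) and 941 for Treg expansion (members 5). From 1500 UMIs the large clone difference was 48 (members 0) and CD4 had 0 members. With large clones from 6 cells the difference was 388. At least 2 Foxp3 UMIs gave 60 for Treg expansion and 28 for Treg CD62L (members 0), and any Foxp3 barcode 647 for the latter. The CD11a difference had 2 members between the outer CD11a ranges, and the cycling difference 2 with 4 or more cycling UMIs.

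Leaving out 1 replicate gave ranges of 544 to 1248 genes for the clone size difference, 207 to 798 for the CD62L difference, 505 to 1601 for CD8 large clones (members 3 to 6), 66 to 152 for CD4 large clones (members 0 to 2) and 21 to 341 for their difference (members 0 to 5). It gave 1 to 2 members for CD8 CD11a, 23 to 35 genes for its difference (members 1 to 4), 2 to 4 members for CD4 cycling and 51 to 134 genes for its difference (members 1 to 4). Treg expansion ranged from 191 to 910 (members 1 to 4) and Treg CD62L from 2 to 3 members. No count of members is given for Treg against CD4, whose CD4 side the choice of members used. Large clones with 1 cell per clonotype were not run in CD8 cells, as 1 library had enough cells on both sides.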
